A study of Homo sapiens and Mus musculus with 57 samples.

Results

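The transcriptional response of B16F10 cells to TAK-981 was measured by RNA sequencing in 6 libraries. B16F10 is an established mouse melanoma line, derived from a tumour of a C57BL/6 mouse and selected for lung colonization. The 3 TAK-981 libraries (replicates 1 to 3) came from cells kept for 16 h with 1 uM TAK-981, and the 3 DMSO libraries (replicates 4 to 6) from cells kept for 16 h with the vehicle DMSO. They were chosen by the line and treatment in the labels and are 6 of the 57 libraries of a series of 8 tumour lines in 19 groups, which asked how strongly tumour lines respond to inhibitors of the SUMO-activating enzyme. All groups were plated 24 h before treatment in media with serum, and each was seeded in triplicate. Whether the 3 wells of a group were independent cultures is not stated, and the tests see well-to-well variation alone. The other mouse lines had the same 2 treatments with 3 libraries each, namely CT26 and MC38 (colon carcinoma) and A20 (B cell lymphoma), and are used only where the B16F10 response is set against theirs.

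SUMO proteins are small modifiers that are joined to lysines of other proteins by an enzyme cascade, which begins with the activating enzyme made of SAE1 and UBA2. SENP proteases remove them again. Many targets are transcription factors and chromatin proteins, on which SUMO often goes with repression, and MITF and SOX10, the factors that drive the melanocyte programme, are among the known targets. TAK-981 (subasumstat) joins SUMO in an adduct that blocks the activating enzyme, and it is known for raising type I interferon signalling in immune cells.

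The deposited tables list genes by mouse Ensembl identifier only, and no table used here pairs these identifiers with names. Symbols were therefore assigned from knowledge of the public mouse annotation, to 732 of 43432 identifiers, and those of the genes with the largest changes were assigned after their values were seen. The gene length implied by counts and FPKM in these tables followed that of the longest coding transcript of the human gene with the same symbol (Spearman rho of 0.84 across 673 genes, a description). Identifiers are printed beside the genes on which the results turn, so that each name can be checked. No mouse sequence was available to show beside them.

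The 6 libraries held 17917958 to 22660595 estimated counts, and 16088 to 17087 genes had a count above 0. TAK-981 libraries had more such genes than DMSO libraries (16980 ± 185 against 16370 ± 251, SD, n = 3 each). The share of counts from mitochondrially encoded genes was 4.31% ± 0.442 in TAK-981 libraries and 3.61% ± 0.662 in DMSO libraries, and its part in the results below was not tested. The first principal component held 79.4% of the variance and separated the treatments. On the second component, with 7.76%, DMSO replicate 6 stood apart (-14.7, against 7.58 and 7.90 for the other DMSO libraries); leaving it out gave 3025 higher and 3151 lower genes. Replicates of one group differed by more than sampling noise, with a chi-square per degree of freedom of 3.16 to 4.36 between TAK-981 libraries and 9.28 to 12.3 between DMSO libraries.

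TAK-981 changed a large part of the B16F10 transcriptome, mostly by small amounts. Changes of 2-fold or more were more often rises than falls, but not among genes of higher level in DMSO libraries. Of 12544 genes tested, 3089 were higher and 3089 lower with TAK-981 at an adjusted p under 0.05 (edgeR quasi-likelihood test, Benjamini-Hochberg), which is 24.6% in each direction and the share against which the counts of list members below are to be read. A gene past this threshold is called here. Called changes had a median size of 0.40 on the log2 scale. A change of 2-fold or more was found in 536 called genes that were higher (4.27% of those tested) and in 218 that were lower (1.74%). Among the 2-fold rises, 262 genes averaged under 1 CPM (counts scaled to library size by TMM) in DMSO libraries and 88 averaged at least 10 CPM. Among the 2-fold falls, 23 averaged under 1 CPM in DMSO libraries and 117 at least 10 CPM. With library totals in place of TMM scaling, 3826 genes were higher and 2342 lower, and the share of calls that were higher was 62.0% there.

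**Figure D1:**
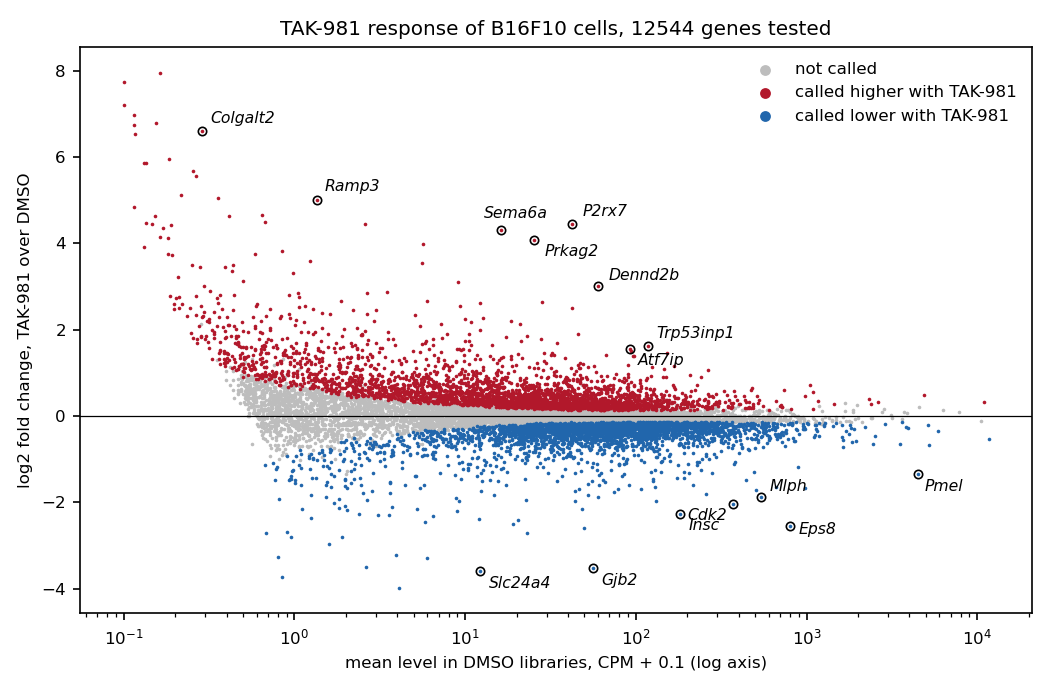
Log2 fold change (TAK-981 over DMSO) of each of 12544 tested genes against its mean level in the DMSO libraries (CPM + 0.1, log axis), with 3 libraries a group. Genes of low level with DMSO make up much of the upper left, while the named rises P2rx7, Sema6a, Prkag2 and Dennd2b and the named falls Eps8, Cdk2, Mlph and Pmel started from higher levels.

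Several abundant genes stood out among the rises. P2rx7 (ENSMUSG00000029468), an ATP-gated ion channel, had 917.9, 920.6 and 906.8 CPM in TAK-981 libraries, against 40.2, 41.9 and 44.2 CPM in DMSO libraries. Prkag2 (ENSMUSG00000028944), a regulatory subunit of the energy sensor AMPK, had 421.6, 432.8 and 441.5 CPM in TAK-981 libraries, against 25.26, 24.99 and 25.88 CPM in DMSO libraries. The groups lay far apart for both genes, with log2 fold changes of 4.44 (SE 0.06) for P2rx7 and 4.09 (SE 0.06) for Prkag2, and both had an adjusted p of 3.0e-14 in edgeR. Sema6a (ENSMUSG00000019647), a transmembrane guidance molecule of the semaphorin family, had 322.8, 305.8 and 324.1 CPM in TAK-981 libraries, against 15.2, 15.8 and 17.3 CPM in DMSO libraries (log2 fold change 4.31, SE 0.07). Dennd2b (ENSMUSG00000031024), an activator of Rab GTPases, had 495.9, 454.7 and 499.8 CPM in TAK-981 libraries, against 60.7, 59.8 and 59.5 CPM in DMSO libraries (log2 fold change 3.01, SE 0.06). Every TAK-981 library lay above every DMSO library for these genes, as the rule for naming them required. In the direction of the fold change, such separation held for 57.5% of all genes tested.

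Other large rises began from low levels. Ramp3 (ENSMUSG00000041046), a partner protein of the calcitonin-like receptor, averaged 40.7 ± 2.88 CPM in TAK-981 libraries and 1.25 ± 0.353 CPM in DMSO libraries (SD, n = 3 each). Mical2 (ENSMUSG00000038244), which oxidizes actin, averaged 56.1 ± 5.56 CPM in TAK-981 libraries and 2.50 ± 0.834 CPM in DMSO libraries. Cpm (ENSMUSG00000020183), the membrane peptidase carboxypeptidase M, averaged 88.4 ± 5.23 CPM in TAK-981 libraries and 5.55 ± 0.409 CPM in DMSO libraries. Cyp26b1 (ENSMUSG00000063415), which degrades retinoic acid, averaged 63.8 ± 2.64 CPM in TAK-981 libraries and 5.48 ± 0.0657 CPM in DMSO libraries, and Nova1 (ENSMUSG00000021047), a neuronal splicing regulator, averaged 77.0 ± 1.21 against 8.96 ± 1.04 CPM. Colgalt2, a collagen galactosyltransferase, had 17.2 to 19.3 CPM in TAK-981 libraries and 0.137 to 0.223 CPM in DMSO libraries. The transcription factors Grhl2 and Lhx9, the Arf regulator Acap1 and the prostacyclin receptor Ptgir rose in the same way, with log2 fold changes of 4.50 to 5.67 and means of 7.99 to 13.4 CPM in TAK-981 libraries. In DMSO libraries Grhl2, Lhx9 and Acap1 averaged 0.156, 0.257 and 0.167 CPM, so the sizes of their fold changes rest on few counts there. Efcab6 had 4.93 to 6.99 CPM in TAK-981 libraries and 0 to 0.112 CPM in DMSO libraries, too few counts for a fold change. Pacsin1, Rtn4rl1, Bmf, Mettl27 and Plxdc1 completed the 20 largest rises, with log2 fold changes of 2.80 to 3.82. Among the genes ranked with these, 7 identifiers had no certain symbol and were passed over; the highest of them, ENSMUSG00000075551, averaged 18.2 CPM in TAK-981 libraries and 0.0638 CPM in DMSO libraries.

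Outside the melanocyte genes described below, of which Slc24a4 had a log2 fold change of -3.6, the genes with the largest falls had varied roles. Gjb2 (ENSMUSG00000046352), the gap junction protein connexin 26, had 4.53, 5.11 and 4.95 CPM in TAK-981 libraries, against 61.7, 52.0 and 54.0 CPM in DMSO libraries (log2 fold change -3.52, SE 0.09). Eps8 (ENSMUSG00000015766), an actin regulator linked to growth factor receptors, had 133.0, 143.2 and 139.9 CPM in TAK-981 libraries, against 766.0, 842.9 and 806.0 CPM in DMSO libraries (log2 fold change -2.54, SE 0.06). Insc (ENSMUSG00000048782), an adaptor that orients the mitotic spindle, had 38.1, 37.4 and 37.9 CPM in TAK-981 libraries, against 184.9, 179.1 and 180.8 CPM in DMSO libraries (log2 fold change -2.26, SE 0.05). Every TAK-981 library lay below every DMSO library for these genes, as the rule for naming them required. Such separation, in the direction of the fold change, held for 57.5% of all genes tested. Cdk2 (ENSMUSG00000025358), the kinase of S-phase entry, had 93.3, 93.1 and 87.0 CPM in TAK-981 libraries, against 339.1, 396.7 and 382.1 CPM in DMSO libraries (log2 fold change -2.03, SE 0.07). Cdk2 adjoins the pigment gene Pmel in the mouse genome, and whether counting kept their reads apart is not given in the sources used here. The semaphorin Sema6d, the lipid-splitting enzyme Mgll, the growth factor receptor Erbb3, the retinoic acid receptor Rarb and the bicarbonate carrier Slc4a4 fell by 1.82 to 2.72 on the log2 scale. Arhgef37, Dhrs2, Cpne4, Mcc and Syt9 fell by 1.75 to 2.45. Gsta2, which has near-identical paralogs, is uncertain, with 1.73 to 2.16 CPM in TAK-981 libraries and 7.997 to 9.38 CPM in DMSO libraries. Entpd4 has a close copy too, and its TAK-981 libraries lay far apart (2.80, 0.892 and 21.9 CPM, against 38.9, 54.6 and 56.1 CPM in DMSO libraries). Its call (edgeR adjusted p = 0.0015) was lost with DESeq2. Among the genes ranked with these falls, 7 identifiers had no certain symbol and were passed over. The largest fall among them was in ENSMUSG00000093675 (log2 fold change -3.29).

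**Figure D2:**
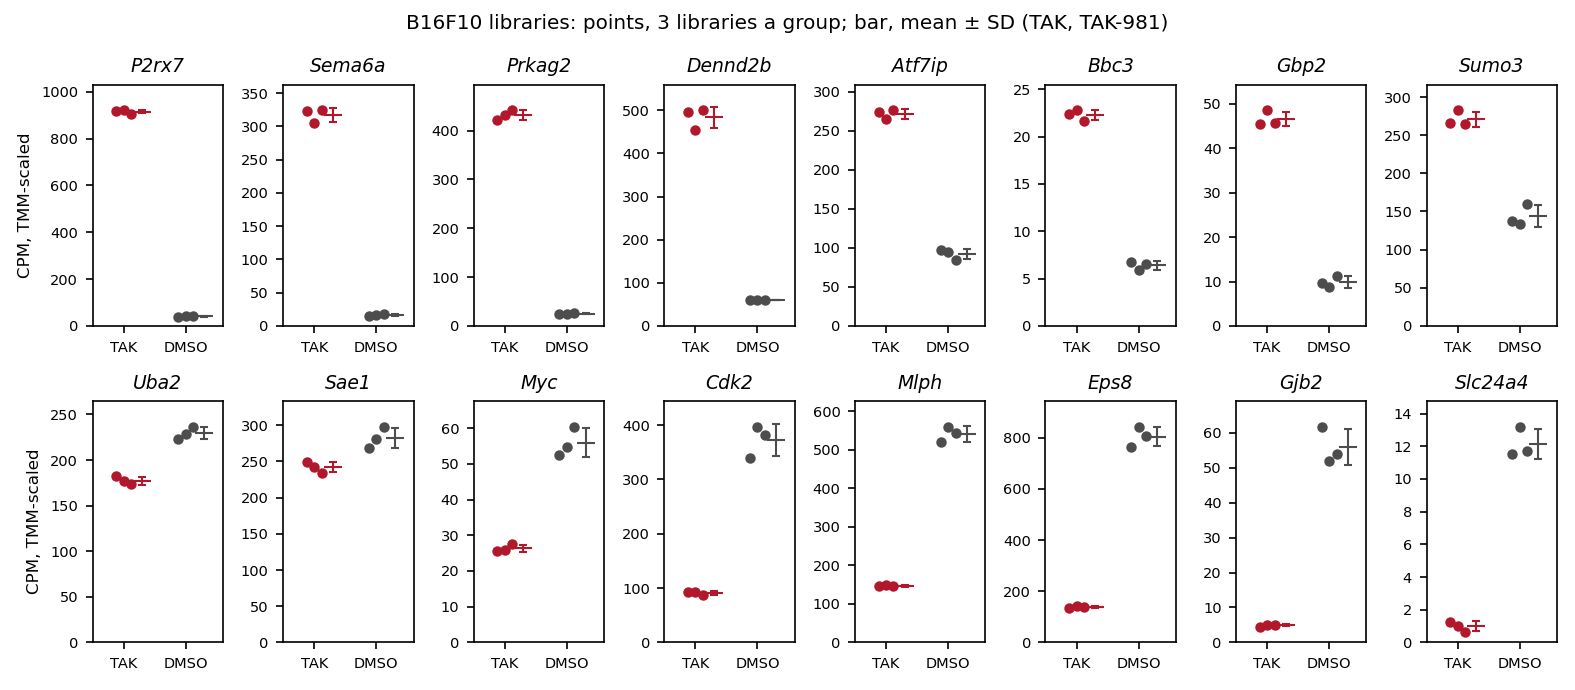
Level of 16 genes in each of the 6 B16F10 libraries (CPM scaled by TMM, each panel from 0), TAK-981 left of DMSO, with the mean and SD of 3 libraries beside the points. The groups are apart in every panel, narrowly for Sae1 (234.5 to 249.0 CPM with TAK-981 and 269.1 to 297.8 CPM with DMSO). Of the genes shown, P2rx7, Sema6a and Prkag2 have the largest log2 fold changes.

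Transcripts of the enzyme that TAK-981 blocks were slightly lower. Uba2 (ENSMUSG00000052997), its catalytic subunit, had 182.2, 176.9 and 173.4 CPM in TAK-981 libraries, against 223.6, 228.7 and 236.4 CPM in DMSO libraries (log2 fold change -0.37, SE 0.05, edgeR adjusted p = 5.9e-05). Sae1 (ENSMUSG00000052833), its partner subunit, had 249.0, 242.9 and 234.5 CPM in TAK-981 libraries, against 269.1, 280.4 and 297.8 CPM in DMSO libraries (log2 fold change -0.22, SE 0.06, edgeR adjusted p = 0.0048). Both falls were under 2-fold, and transcript levels do not measure the activity of an enzyme that is inhibited as a protein. Among the modifiers, Sumo3 (ENSMUSG00000020265) rose, with 265.6, 282.5 and 265.2 CPM in TAK-981 libraries, against 137.8, 133.8 and 160.1 CPM in DMSO libraries (log2 fold change 0.91, SE 0.07). Sumo2 (0.15, SE 0.07) was not called. Of the proteases, Senp7 rose by 0.42 (SE 0.06) and Senp1 fell by 0.30 (SE 0.06). The ligase Pias3 rose by 0.34 (SE 0.07), and Uspl1, a SUMO protease of another family, fell by 0.30 (SE 0.05). In all, 5 of 30 tested members of the SUMO pathway rose and 11 fell, beside the 24.6% called in each direction over all genes, and the median log2 fold change of the members was -0.09 against 0.01 over all genes tested. The count of falls was 6 with library totals in place of TMM, 4 on FPKM values and 6 without TAK-981 replicate 2.

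The melanocyte programme fell across most of its genes, and the line label was borne out by its high level. In DMSO libraries the pigment enzymes Tyrp1 and Dct, the melanosome proteins Pmel and Gpnmb and the melanoma antigen Mlana averaged 1385 to 5062 FPKM (fragments per length and library size, as deposited). Of 23 tested members of the melanocyte list, 20 fell, 2 rose and 1 was not called, with a median log2 fold change of -1.31, beside the 24.6% of all genes called lower. The master regulator Mitf (ENSMUSG00000035158) had 62.6, 64.7 and 63.0 FPKM in TAK-981 libraries, against 93.7, 107.7 and 85.6 FPKM in DMSO libraries (log2 fold change of counts -0.67, SE 0.06). Sox10 (ENSMUSG00000033006), the neural crest factor upstream of Mitf, had 102.1, 98.6 and 104.4 FPKM in TAK-981 libraries, against 149.3, 150.2 and 157.7 FPKM in DMSO libraries (log2 fold change -0.65, SE 0.05). Both regulators thus fell in every TAK-981 library relative to every DMSO library, and by less than most of the pigment genes. Pmel (ENSMUSG00000025359), which builds the melanosome fibrils, had 927.9, 918.3 and 885.7 FPKM in TAK-981 libraries, against 1988, 2296 and 2380 FPKM in DMSO libraries (log2 fold change -1.35, SE 0.07). Tyr (ENSMUSG00000004651), the rate-limiting enzyme of melanin synthesis, had 25.5, 29.5 and 26.7 FPKM in TAK-981 libraries, against 65.4, 67.1 and 63.1 FPKM in DMSO libraries (log2 fold change -1.31, SE 0.06).

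The fitted falls were larger for the transporters than for the pigment enzymes Dct and Tyrp1. Slc24a4 fell by 3.60 (SE 0.17), Oca2 by 2.15 (SE 0.09), Slc45a2 by 1.66 (SE 0.06) and Slc24a5 by 1.64 (SE 0.06) on the log2 scale, whereas Dct fell by 0.68 (SE 0.06) and Tyrp1 by 0.54 (SE 0.06). Mlph and Rab27a, which tie melanosomes to the actin motor, fell by 1.88 (SE 0.05) and 1.31 (SE 0.06). The receptors Gpr143 and Mc1r fell by 1.73 (SE 0.11) and 1.24 (SE 0.06), and the channel Trpm1 by 1.69 (SE 0.06). Rab38, Bace2 and Tfap2a fell by 1.29, 0.98 and 0.32, while Kit and Cdh1, both under 2 CPM with DMSO, fell by 1.40 and 2.96. Mlana (ENSMUSG00000024806) was not called, with 1332, 1392 and 1299 FPKM in TAK-981 libraries, against 1283, 1375 and 1498 FPKM in DMSO libraries, and the groups overlapped. Pax3, an early regulator of the lineage, rose by 0.32 (SE 0.05). Gpnmb rose by 0.49 (SE 0.05), with 3142 to 3200 FPKM in TAK-981 libraries and 2080 to 2200 FPKM in DMSO libraries. In bulk RNA, fewer cells with a programme and less RNA of it per cell cannot be told apart.

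**Figure D3:**
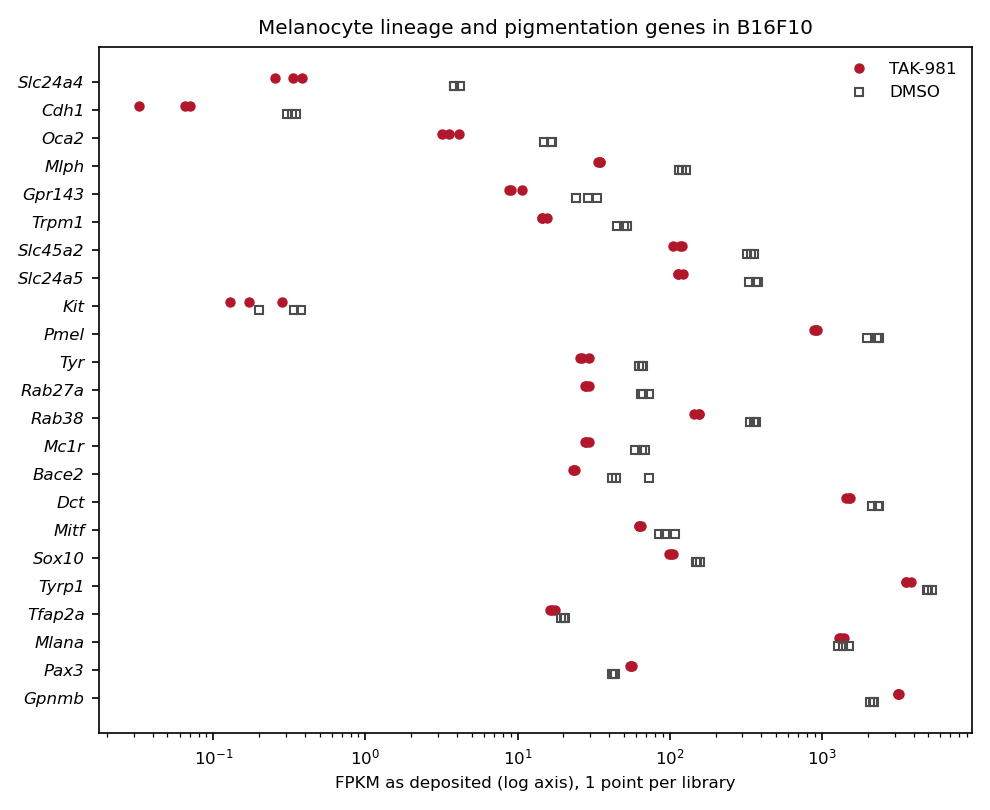
FPKM of 23 melanocyte genes in each B16F10 library (log axis), TAK-981 as filled circles above DMSO as open squares, ordered by log2 fold change with the largest falls at the top. Most genes are shifted to the left with TAK-981, Mlana and Kit overlap, and Pax3 and Gpnmb are shifted to the right.

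Interferon-stimulated genes rose moderately, while Ifnb1, the interferon beta gene, was listed at 0 FPKM in all 6 libraries. Of 37 tested members 24 rose and the other 13 were not called, beside the 24.6% of all genes called higher, with a median log2 fold change of 0.49. Gbp2 (ENSMUSG00000028270), an interferon-induced GTPase, had 45.6, 48.6 and 45.7 CPM in TAK-981 libraries, against 9.57, 8.70 and 11.3 CPM in DMSO libraries (log2 fold change 2.25, SE 0.08). The ubiquitin-like modifier Isg15 rose by 1.37 (SE 0.17), the GTPase Irgm1 by 1.20 (SE 0.09), the antiviral Parp12 by 1.33 (SE 0.07), the RNA sensor Ifih1 by 0.88 (SE 0.11) and the ubiquitin ligase Trim25 by 0.79 (SE 0.08). Most of these began low, with DMSO means of 2.05 CPM for Isg15 and 18.4 CPM for Parp12. Another 10 members of the list were below the count filter, among them Irf7 and Oas2.

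Both peptide transporter genes of antigen presentation rose, while the class I chains H2-K1 and H2-D1 were not called. Tap1 (ENSMUSG00000037321), a subunit of the peptide transporter, had 12.1, 12.9 and 10.7 CPM in TAK-981 libraries, against 3.02, 3.60 and 3.74 CPM in DMSO libraries (log2 fold change 1.79, SE 0.13). Its partner Tap2 rose by 2.53 (SE 0.21), the loading factor Tapbp by 0.88 (SE 0.10), the proteasome activator Psme2 by 0.54 (SE 0.08), the immunoproteasome subunit Psmb9, under 1 CPM in both groups, by 2.61 (SE 0.57) and the peptidase Erap1 by 0.51 (SE 0.09). The class I chains H2-K1 (-0.24, SE 0.16) and H2-D1 (0.09, SE 0.06) and the light chain B2m (0.05, SE 0.06) were not called, and the chaperone Pdia3 and the subunit Psmb10 fell by 0.31 (SE 0.06) and 0.36. In all 10 of 20 tested members rose and 3 fell (median 0.21). Among interferons, cytokines and chemokines only 5 of 18 passed the count filter. Cxcl10 (ENSMUSG00000034855), a T cell attractant, had 34.7, 37.4 and 33.2 CPM in TAK-981 libraries, against 10.1, 10.6 and 10.8 CPM in DMSO libraries (log2 fold change 1.75, SE 0.08). The macrophage growth factor Csf1 rose by 1.07 (SE 0.08). Cx3cl1 (0.90, SE 0.29) rose and Ccl5 fell by 0.79 (SE 0.27), both under 2 CPM in either group and both not called in some leave-one-out fits.

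Genes of the NF-kB pathway rose in part. The subunit Relb had 20.3, 20.7 and 22.1 CPM in TAK-981 libraries, against 9.11, 7.90 and 9.09 CPM in DMSO libraries (log2 fold change 1.27, SE 0.09). Nfkb1 and Nfkb2 rose by 0.51 (SE 0.05) and 0.45 (SE 0.06), the deubiquitinase Cyld by 0.64 (SE 0.08) and the ubiquitin ligase Birc2 by 0.58 (SE 0.08), and the inhibitor Nfkbib fell by 0.47 (SE 0.06). Of 16 tested members 10 rose and 2 fell (median 0.27).

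Targets of p53 rose almost throughout. Of 25 tested members 23 rose and 2 were not called, with a median log2 fold change of 0.42. Bbc3 (ENSMUSG00000002083), which encodes the death-inducing BH3-only protein PUMA, had 22.4, 22.8 and 21.7 CPM in TAK-981 libraries, against 6.77, 5.90 and 6.53 CPM in DMSO libraries (log2 fold change 1.8, SE 0.09). Trp53inp1 (ENSMUSG00000028211), a stress-induced cofactor, had 358.8, 379.0 and 354.1 CPM in TAK-981 libraries, against 120.5, 118.6 and 114.9 CPM in DMSO libraries (log2 fold change 1.62, SE 0.05). The groups did not overlap for either gene. The cell cycle inhibitor Cdkn1a rose by 0.71 (SE 0.06), the antiproliferative Btg2 by 1.53 (SE 0.10), the kinase Plk2 by 1.32 (SE 0.13) and the stress regulator Sesn2 by 1.05 (SE 0.06). Trp53 itself rose by 0.15 (SE 0.05) and its inhibitor Mdm2 by 0.54 (SE 0.06).

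Within the BCL2 family the rises included the BH3-only killers. Bmf (ENSMUSG00000040093) had 23.03, 25.01 and 26.93 CPM in TAK-981 libraries, against 3.30, 3.60 and 3.23 CPM in DMSO libraries (log2 fold change 2.88, SE 0.11). Bcl2l11, which encodes BIM, rose by 1.65 (SE 0.12), the effector-like Bok by 1.58 (SE 0.19) and Bid by 0.43 (SE 0.06). Among the protectors, Mcl1 fell by 0.22 (SE 0.05), while Bcl2 (0.09, SE 0.07) and Bcl2l1 (-0.02, SE 0.06) were not called. In all 6 of 12 tested members rose and 2 fell (median 0.17).

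Genes of DNA replication fell nearly as one group, and those of mitosis less so. Of 34 tested replication genes 32 fell, with a median of -0.49. Cdc6 (ENSMUSG00000017499), which loads the replicative helicase, had 42.7, 36.7 and 39.6 CPM in TAK-981 libraries, against 79.6, 90.5 and 86.9 CPM in DMSO libraries (log2 fold change -1.11, SE 0.07). The repressor E2f8 fell by 0.83 (SE 0.06), the helicase subunit Mcm3 by 0.72 (SE 0.05), the salvage kinase Tk1 by 0.71 (SE 0.06) and the methylation reader Uhrf1 by 0.62 (SE 0.05). Of 34 mitotic genes 22 fell and 3 rose, with a median of -0.18. The topoisomerase Top2a fell by 0.59 (SE 0.06), the passenger complex members Cdca8 and Aurkb by 0.43 (SE 0.05) and 0.32 (SE 0.05), the spindle kinase Aurka by 0.40 (SE 0.07) and the checkpoint kinase Bub1 by 0.32 (SE 0.05), and the centromere histone Cenpa rose by 0.35 (SE 0.05). The proliferation marker Mki67 was not called (-0.07, SE 0.09). The count of mitotic falls was 12 with library totals, 12 on FPKM values and 14 without TAK-981 replicate 3.

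Myc and the ribosome biogenesis genes fell in all 30 members tested, with a median of -0.54, and in 28 with library totals in place of TMM. Myc (ENSMUSG00000022346) had 25.7, 25.9 and 27.5 CPM in TAK-981 libraries, against 52.5, 54.7 and 60.3 CPM in DMSO libraries (log2 fold change -1.08, SE 0.07). The spermidine synthase Srm fell by 1.04 (SE 0.06), the nucleolar proteins Nolc1 and Ncl by 0.87 (SE 0.05) and 0.60 (SE 0.05), the RNA polymerase I subunit Polr1b by 0.69 (SE 0.06) and the ribosome assembly factor Rrs1 by 0.68 (SE 0.05). The smallest fall in the list was 0.23 (SE 0.06), in the polymerase subunit Polr1a.

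Chaperone and stress genes were mostly lower. Of 19 genes of the endoplasmic reticulum unfolded protein response 15 fell and 1 rose (median -0.41). Hspa5 (ENSMUSG00000026864), the main chaperone of that compartment, had 1016, 1008 and 996.2 CPM in TAK-981 libraries, against 1628, 1640 and 1664 CPM in DMSO libraries (log2 fold change -0.71, SE 0.05). The cochaperones Sdf2l1, Dnajc3 and Manf fell by 0.86 (SE 0.06), 0.85 (SE 0.05) and 0.65 (SE 0.05). In the cytosolic and mitochondrial heat shock list 12 of 19 fell and 3 rose (median -0.25), with Hspd1 falling by 0.64 (SE 0.05) and Hspe1 by 0.50 (SE 0.06). Of 24 ATF4 and CHOP genes 14 fell and 4 rose (median -0.27): the amino acid carrier Slc7a5 fell by 0.94 (SE 0.06) and the serine synthesis enzymes Phgdh and Psat1 by 0.58 (SE 0.05) and 0.56 (SE 0.05), whereas Ddit4, an inhibitor of mTOR signalling, rose by 1.43 (SE 0.08) and Atf3 by 0.69 (SE 0.08). Glycolysis and hypoxia genes fell in 19 of 23 cases and rose in 1 (median -0.43). Ndrg1 (ENSMUSG00000005125), a stress-induced gene of that list, had 23.9, 26.0 and 25.6 CPM in TAK-981 libraries, against 62.4, 63.4 and 61.8 CPM in DMSO libraries (log2 fold change -1.31, SE 0.06). The hexokinases Hk2 and Hk1 fell by 1.05 (SE 0.08) and 0.52 (SE 0.05) and the phosphofructokinase Pfkp by 0.77 (SE 0.06).

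Antioxidant genes driven by NRF2 went up, with 11 of 20 tested members called higher and the other 9 not called (median 0.22). Srxn1, which repairs peroxiredoxins, rose by 0.72 (SE 0.06), Osgin1 by 0.68 (SE 0.07), the glutathione synthesis subunit Gclm by 0.40 (SE 0.05) and Nfe2l2, which encodes NRF2, by 0.30 (SE 0.06). Cholesterol synthesis genes showed no common direction, with 7 of 25 higher and 5 lower (median 0.05). The early enzyme Hmgcs1 rose by 0.48 (SE 0.05), whereas Fdps and Insig1 fell by 0.32 (SE 0.07) and 0.30 (SE 0.06). The count of rises was 4 without TAK-981 replicate 1.

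Genes of transforming growth factor signalling and extracellular matrix rose in 11 of 20 cases and fell in 2 (median 0.32). Tgfb2 (ENSMUSG00000039239), a ligand, had 46.6, 47.1 and 50.6 CPM in TAK-981 libraries, against 11.1, 9.70 and 11.2 CPM in DMSO libraries (log2 fold change 2.17, SE 0.07). Snai2, a transcription factor of the neural crest and of mesenchymal transition, had 9.10, 10.4 and 9.89 CPM in TAK-981 libraries, against 2.38, 2.80 and 2.34 CPM in DMSO libraries (log2 fold change 1.96, SE 0.13). The matrix proteins Ccn2, Fn1 and Ccn1 rose by 0.97 (SE 0.09), 0.91 (SE 0.08) and 0.66 (SE 0.06), and the filament protein Vim fell by 0.58 (SE 0.06). Immediate early genes split into both directions, with 10 of 21 higher and 7 lower (median 0.19). Egr1 fell by 1.70 (SE 0.07), the phosphatase Dusp4 by 1.44 (SE 0.06) and Nr4a3 by 1.33 (SE 0.07), whereas Klf6 rose by 0.94 (SE 0.06), Ier3 by 0.76 (SE 0.07) and Jun by 0.64 (SE 0.06).

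Among genes of heterochromatin silencing, the largest rise was in Atf7ip and the largest fall in L3mbtl2. Atf7ip (ENSMUSG00000030213), the partner of the histone methyltransferase SETDB1, had 273.8, 264.5 and 276.0 CPM in TAK-981 libraries, against 96.9, 94.9 and 84.3 CPM in DMSO libraries (log2 fold change 1.56, SE 0.06). L3mbtl2 (ENSMUSG00000022394), a Polycomb-type repressor, had 70.4, 69.4 and 68.2 CPM in TAK-981 libraries, against 131.2, 133.2 and 136.4 CPM in DMSO libraries (log2 fold change -0.95, SE 0.05). The methyltransferase Dnmt3a rose by 0.47 (SE 0.07) and Morc2a by 0.47 (SE 0.05), and the histone chaperone subunit Chaf1a fell by 0.43 (SE 0.06). In all 6 of 25 members rose, a share near the 24.6% of all genes, and 13 fell (median -0.16), and the count of falls was 8 with library totals, 8 on FPKM values, 8 without TAK-981 replicate 1 and 7 without TAK-981 replicate 2. Of the germline list 18 of 22 members with an identifier were below the count filter and were not assessed, and of the 4 tested the piRNA factor Tdrkh fell by 0.70 (SE 0.06) and the other 3 were not called. Of 8 tested imprinted genes 5 rose and 1 fell, with rises of 1.26 (SE 0.39) in Cdkn1c, which was under 1 CPM in both groups, 0.66 (SE 0.08) in Plagl1 and 0.57 (SE 0.07) in Peg10. Genes of the 2-cell stage were not analysed here. Of 15 mitochondrially encoded genes 1 was called, mt-Co1 (0.31, SE 0.12), and their median was 0.14; that count ran from 0 to 12 over the fits that left out 1 library, with 12 without DMSO replicate 4.

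**Figure D4:**
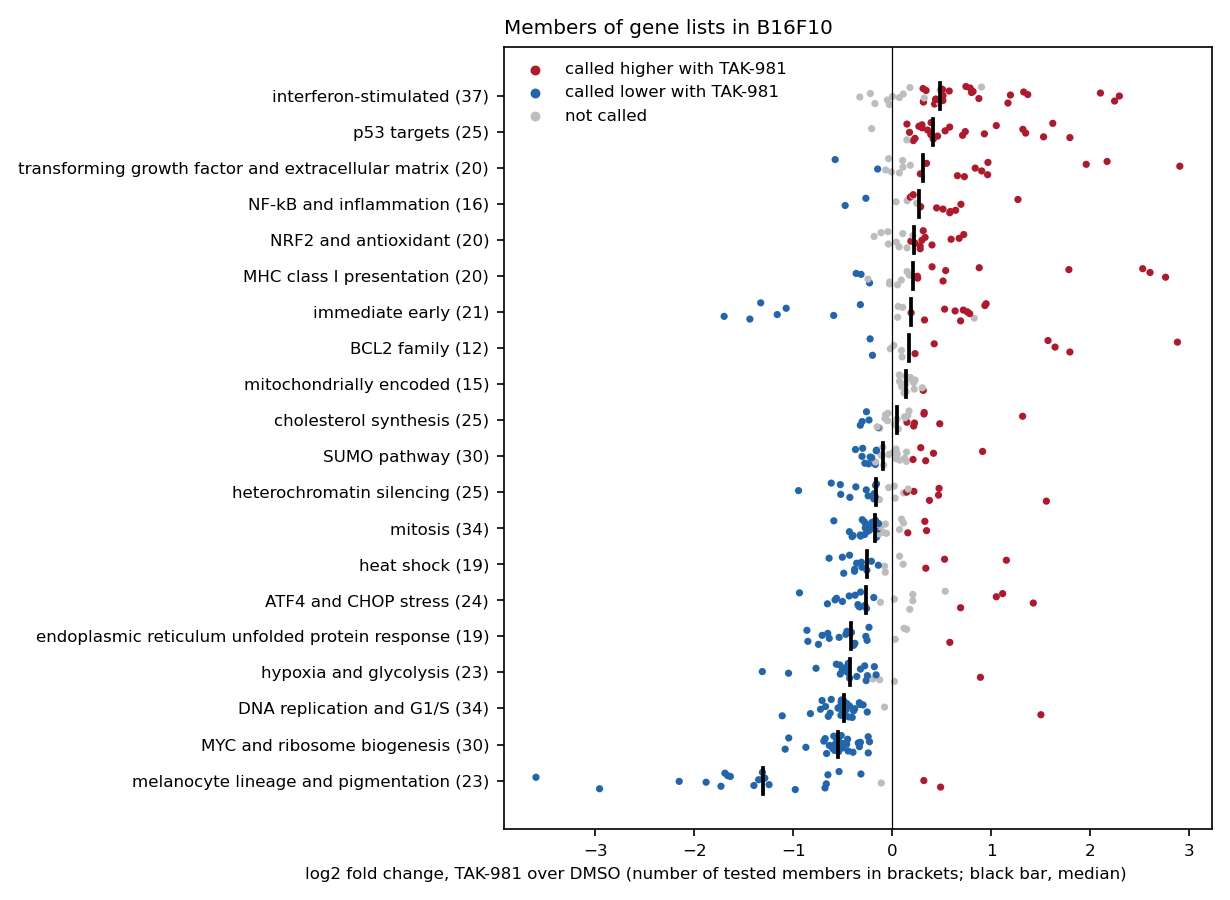
Log2 fold change (TAK-981 over DMSO) of each tested member of 20 gene lists in B16F10, with lists ordered by their median (black bar) and the number of tested members in brackets. Medians run from 0.49 for interferon-stimulated genes to -1.31 for melanocyte genes.

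Markers of other cell types had low summed levels in both groups, given here in FPKM. The summed level of 10 T and NK cell markers was 0.0255 to 0.0462 in TAK-981 libraries and 0 to 0.0839 in DMSO libraries, and 8 of them were at 0 in all 6 libraries. All 7 keratinocyte markers were at 0 in all 6. The 10 myeloid markers summed to 1.57 to 2.38 in TAK-981 libraries and 2.40 to 3.09 in DMSO libraries, the 9 epithelial markers to 1.78 to 2.04 and 0.434 to 1.44, the 9 fibroblast markers to 5.37 to 5.80 and 5.84 to 6.23, and the 6 endothelial markers to 0.113 to 0.142 and 0.0148 to 0.120. In the myeloid, epithelial and fibroblast lists the called members were Cd68 (-0.66), Cdh1 (-2.96), Lgals4 (1.41), Pdgfra (1.25), Col1a1 (0.91), Postn (-0.52) and Col1a2 (-0.90). The defining genes Cd3e, Itgam, Epcam, Dcn and Cdh5 were at 0 in every library. Among the 10 B cell markers 1 passed the count filter, Cd74, the class II invariant chain, through the level of its TAK-981 libraries alone. It had 1.118, 1.173 and 1.154 CPM in TAK-981 libraries, against 0.275, 0.05 and 0 CPM in DMSO libraries. The DMSO counts are too few for a fold change.

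The B16F10 response was then set against that of the other 3 mouse lines, each with its own DMSO libraries. With the same fit by line, 35.3% of tested genes were called in MC38, 18.4% in A20 and 9.36% in CT26, against 49.3% in B16F10. Of the 2-fold rises in B16F10 that were also tested in MC38, 167 of 369 (45.3%) were called higher there, where 17.7% of the shared genes were. In A20 this was 67 of 237 (28.3%, against 9.19% of the shared genes) and in CT26 60 of 323 (18.6%, against 4.53%). In the other direction, 60.4% of the 207 genes with a 2-fold rise in MC38, 58.1% of 86 in A20 and 69.7% of 33 in CT26 were called higher in B16F10, beside 24.6% of all genes tested there. Of the genes with a 2-fold fall in those lines, 16 of 50 in MC38, 9 of 41 in A20 and 2 of 10 in CT26 were called lower in B16F10, close to the 24.6% of all genes. Of the 2-fold falls in B16F10, 39 of 104 were called lower and 15 higher in MC38, where 18.1% of the shared genes were lower. In A20 28 of 80 were lower and 6 higher (8.81% of shared genes lower), and in CT26 14 of 89 were lower and 3 higher (4.43%). Across shared genes the log2 fold changes of B16F10 had a Pearson r of 0.39 with MC38 (11412 genes), 0.32 with CT26 (10969) and 0.30 with A20 (10397), a description across genes, which are not replicates.

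Where the difference itself was tested (the B16F10 response minus the mean response of CT26, MC38 and A20, edgeR interaction over all 24 mouse libraries), 1346 of 15332 genes had a higher response in B16F10 (8.78%) and 1815 a lower one (11.8%). These numbers include 3232 tested genes with a group at 0 counts, 53 of them called, for which the fitted difference carries no usable value and none is printed; most melanocyte genes are of this kind. Prkag2 had the smallest adjusted p of the difference among the named genes: it rose by 4.09 (SE 0.06) in B16F10, against 0.19 in CT26, 0.06 in MC38 and 0.07 in A20 (adjusted p of the difference 5.3e-20). P2rx7 rose by 4.44 (SE 0.06) in B16F10, against 0.63 in CT26, 1.70 in MC38 and 0.53 in A20 (adjusted p of the difference 8.0e-18). Nova1 rose in B16F10, while its log2 fold changes were -0.19 in CT26, -0.52 in MC38 and -0.47 in A20. Aggf1, a vascular growth factor, rose by 1.20 (SE 0.05) in B16F10, against -0.13, 0.02 and 0.09 in CT26, MC38 and A20, and the membrane remodelling protein Ehd2 rose by 1.02 (SE 0.07), against -0.05, -0.22 and -0.33. Bbc3, at 1.8 in B16F10, had -0.03, 0.38 and 0.17 in CT26, MC38 and A20. Mxd4, a Myc antagonist, rose by 2.12 (SE 0.07) in B16F10 and by less elsewhere (0.47, 1.36 and 0.39). Dennd2b did not differ from MC38 alone (2.94 there, adjusted p of that difference 0.86), although it differed from the mean of the lines.

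Among the lower responses of named genes Cdk2 had the smallest adjusted p, with -2.03 (SE 0.07) in B16F10, against -0.06 in CT26, -0.11 in MC38 and -0.43 in A20 (adjusted p of the difference 4.5e-16). Reads of Cdk2 may be mixed with those of the adjoining melanocyte gene Pmel, which fell in B16F10. The part of this in the Cdk2 difference was not tested. Fam53b was at -1.47 (SE 0.05) in B16F10, against 0.02, 0.57 and -0.12, Spg21 at -0.998 (SE 0.05), against 0.02, 0.04 and 0.07, and Egr1 at -1.70, against -0.41, 0.03 and 0.52. The chaperone gene Hspa5 was at -0.71 (SE 0.05) in B16F10, against 0.0041 in CT26, -0.11 in MC38 and 1.0 in A20, so that its difference holds a rise in A20 as well as a fall in B16F10. Dnajc3, Creld2 and Manf showed the same arrangement, with -0.85, -0.74 and -0.65 in B16F10 and 0.70, 0.86 and 1.14 in A20. Bhlhe40 fell by 1.49 in B16F10 and was at 1.18 in A20. Cpt1a, the gate of mitochondrial fatty acid oxidation, rose by 1.41 (SE 0.05) in B16F10, less than in MC38 (4.12) and A20 (3.48) and more than in CT26 (0.26).

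**Figure D5:**
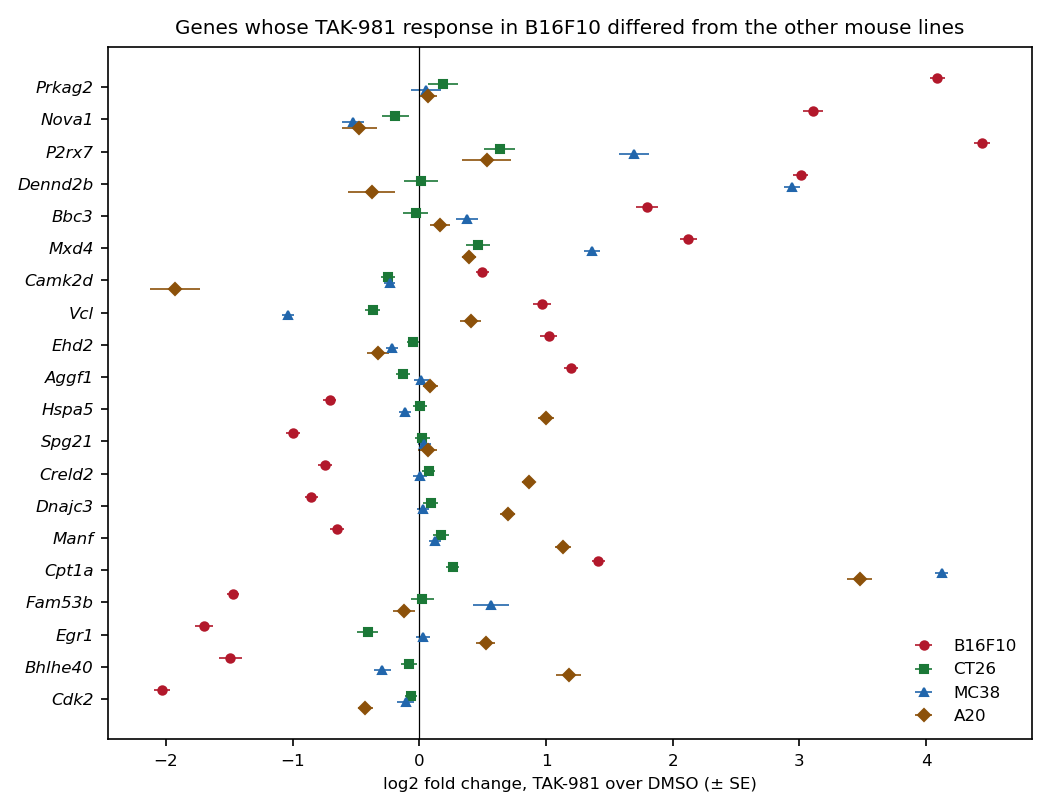
Log2 fold change (TAK-981 over DMSO, with SE) in each of 4 mouse lines for the 20 named genes whose B16F10 response differed from the mean of the other lines, ordered by that difference. Prkag2 and Nova1 stand apart from all 3 other lines, Dennd2b lies beside MC38, and Hspa5, Creld2, Dnajc3 and Manf are low in B16F10 and high in A20.

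By list, the members with a higher response in B16F10 than in the other lines were 18 of 37 interferon-stimulated genes and 15 of 25 p53 targets, beside 8.78% of all genes. Shares of all genes here are over 15332 genes, and 3232 of these had a group at 0 counts. List members are counted over those tested in B16F10, so the shares are a loose comparison. The medians of the interferon and p53 lists were 0.49 and 0.42 in B16F10. For the interferon list the medians were -0.19 in CT26, 0.12 in MC38 and 0.03 in A20, and for the p53 list -0.02, -0.02 and 0.15. The p53 target Cdkn1a was not among those that differed (0.09, SE 0.10, edgeR adjusted p of the difference 0.66). Its log2 fold change was 2.195 in A20, -0.12 in CT26 and -0.21 in MC38. Lower responses in B16F10 were found for 28 of 34 replication genes, 22 of 30 Myc and ribosome biogenesis genes, 20 of 34 mitotic genes and 16 of 19 unfolded protein response genes, beside 11.8% of all genes. The median of the Myc and ribosome biogenesis list was -0.54 in B16F10, -0.25 in CT26, -0.48 in MC38 and -0.17 in A20, so this list was also low in the other lines. For the unfolded protein response list it was -0.41 in B16F10, 0.11 in CT26, 0.05 in MC38 and 0.70 in A20, so that its difference holds higher levels in A20 too, and for the mitotic list -0.18, 0.04, 0.08 and -0.13. For the replication list it was -0.49 in B16F10, -0.01 in CT26, -0.09 in MC38 and -0.34 in A20.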

How the data were processed

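Poly(A) RNA of B16F10 cells was sequenced as paired reads on a NovaSeq instrument after TruSeq RNA library preparation, per the labels' protocols. For the aligner, counting tool, genome build, annotation and strand setting the entry is "not given in the sources used here"; reads of overlapping genes may therefore be mixed. Each deposited table holds, per the file headers, a Count and an FPKM value per Ensembl identifier. The deposited expected counts were not normalized and not always whole: in B16F10 libraries, 44.0 to 46.7% of counts sat in rows that were not whole numbers. They were rounded to whole numbers. The deposited FPKM values, scaled by the authors for gene length and library, were used for levels between genes and for an alternative test. Each table had 0 rows without a gene identifier.

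Groups follow the labels (3 TAK-981 and 3 DMSO libraries). Genes were filtered with filterByExpr (count minimum 10, total minimum 15), scaled with TMM and tested with the quasi-likelihood F-test of edgeR 4.0.16 in R 4.3.3, and p-values were adjusted by Benjamini-Hochberg over all genes tested. A gene is called at an adjusted p under 0.05, and 2-fold means at least 1 on the log2 scale. Standard errors are the log2 fold change divided by the square root of F. CPM values are scaled by TMM. The response difference between lines was a contrast in one fit of all 24 mouse libraries. The fits were also run on simulated counts with known fold changes, whose outcome is not given here and is not used as support.

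No table pairs the mouse identifiers with symbols (0 matched the name tables at hand, which are human). The 732 pairs used were written from knowledge of the public annotation; doubtful pairs were dropped, and 2-cell-stage genes had none. The rule for named genes took Uba2 and Sae1, the 20 called genes that rose and the 20 that fell the most (groups apart, 5 CPM or more in the group with the higher mean), up to 6 called members of each list by adjusted p, defining markers, and up to 10 genes each way with the smallest adjusted p for the difference between lines. A few members are not reported here. Other list members named here were chosen after their values were seen. Members and lists were chosen with earlier results of these data known, so no set test was run and list counts are descriptions beside the percentage of all genes called.

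The alternatives were RLE size factors in the edgeR test, the Wald test of DESeq2 1.42.0, library totals and no filter. Others were 1 CPM in at least 3 libraries, all 24 mouse libraries in one fit, and leaving out each library. In addition, limma 3.58.1 was run on log2(FPKM + 1) and log2(FPKM + 0.1). For the difference between lines a replicate block and each line alone were added. Chosen after seeing the data were genes passing the filter in each of the 4 lines.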

Additional observations from a re-analysis of the deposited data

Results flagged for a closer look

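For 20 named genes the TAK-981 response of B16F10 differed from the mean response of CT26, MC38 and A20 by the edgeR interaction test, with adjusted p-values of the difference from 5.3e-20 to 4.5e-12. The values are log2 differences, B16F10 minus the other lines, in 3 libraries per group. Higher responses in B16F10 were found for Prkag2 (3.98), Nova1 (3.50), P2rx7 (3.49), Dennd2b (2.15), Bbc3 (1.62), Mxd4 (1.38), Camk2d (1.298), Vcl (1.298), Ehd2 (1.22) and Aggf1 (1.205). Lower responses were found for Cdk2 (-1.83), Bhlhe40 (-1.76), Egr1 (-1.75), Fam53b (-1.63), Cpt1a (-1.21), Manf (-1.13), Dnajc3 (-1.126), Creld2 (-1.06), Spg21 (-1.04) and Hspa5 (-1.005). The Cdk2 value carries the limit given above, that reads of the adjoining gene Pmel may be mixed with its own. Camk2d, a calcium-dependent kinase, rose by 0.50 in B16F10 and was at -1.93 in A20, so that its difference holds a lower level with TAK-981 in A20 as well as a rise in B16F10. Vcl, the adhesion protein vinculin, was at 0.97 in B16F10, against -0.37 in CT26, -1.03 in MC38 and 0.41 in A20.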

How the results depend on the processing

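No paired analysis was possible because the TAK-981 libraries carry replicate numbers 1 to 3 and the DMSO libraries 4 to 6. For the difference between lines, a replicate block within treatment gave 1311 higher and 1767 lower genes, against 1346 and 1815 without it. Same-numbered libraries of different lines correlated by -0.22 to 0.16 over 18 pairs, 2 of them above 0.1. Without differently numbered pairs beside them, these values cannot settle whether the numbers pair libraries across lines. On log2(FPKM + 1) values limma called 195 genes 2-fold higher and 98 lower, where the pseudocount shrinks low genes. Library totals gave 3826 higher and 2342 lower genes and moved the median of all genes to 0.07; limma on FPKM gave 3407 and 2116. Counts of lower members were 6 with library totals and 4 on either FPKM scale for the SUMO list, 12 in each of these for mitosis and 8 in each for heterochromatin. Mitochondrially encoded genes called higher numbered 5 with library totals, 5 without a filter, 0 with DESeq2 and 0 on log2(FPKM + 1), beside 1. Leaving out 1 library gave 6 to 10 lower SUMO genes, 14 to 24 lower mitotic genes, 4 to 9 higher cholesterol genes, 7 to 12 lower heterochromatin genes and 0 to 12 higher mitochondrial genes. Leaving out 1 library gave 2508 to 3025 higher and 2568 to 3151 lower genes in all. Of the named genes' fold changes under these settings 2442 kept direction and call, 49 kept direction and lost the call, and 0 changed sign. Against CT26 alone the Cpt1a difference turned to 1.148, since its response there was small. The cause of the other moves was not tested. With 3 wells a group, genes below the count filter were not assessed.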
